A study of Mus musculus with 15 samples.

Results

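The genes described here are the Id, E protein and Runx transcription factors of T cells: Id2, Id3, Tcf3, Tcf4, Tcf12, Runx1, Runx2, Runx3 and Cbfb. They were measured on oligonucleotide arrays of 45101 probe sets, 1 array per sample, in 15 mouse samples. These 9 symbols were chosen with earlier results of these data known, and members were all probe sets annotated to them, whatever their values. The annotation lists 27 such probe sets for 8 of the 9 genes, among 18193 genes in all. It holds 3 for Id2, 1 for Id3, 3 for Tcf3, 6 for Tcf4, 5 for Tcf12, 6 for Runx1, 2 for Runx3 and 1 for Cbfb. No probe set carried the symbol Runx2, which was not analysed here. The gene identifiers behind Tcf3 and Tcf4 are those of the E proteins E2A and E2-2, not of the Wnt pathway factors that have borne the same names.

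E proteins (Tcf3, Tcf4 and Tcf12) are basic helix-loop-helix factors that pair with each other and bind the E box, a short DNA motif with the letters CANNTG. Id proteins have the helix-loop-helix that makes the pair but no basic part to bind DNA, so an E protein held by Id2 or Id3 does not bind the E box. In the T lineage E proteins drive receptor gene rearrangement and early development, Id3 is induced by receptor signals and is high in naive cells, and Id2 is prominent in effector T cells, NK cells and innate lymphoid cells. Runx1 and Runx3 bind DNA as partners of Cbfb. Runx1 serves in thymocytes and naive T cells, while Runx3 silences Cd4 in CD8 cells and supports cytotoxic genes in T and NK cells.

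There were 9 samples of mouse peripheral T cell lymphoma (mPTCL 1 to 9), 3 of T cells after activation in vitro and 3 of resting T cells. The lymphomas grew from p53KO T cells given to C57BL/6 recipients that carry a CD3 knockout and were sorted from liver; such hosts have no T cells of their own but keep B, NK and myeloid cells. The activated and the resting cells were normal T cells of p53 KO mice on the C57Bl/6 background, 5 weeks old, sorted from liver or spleen with no organ stated per sample, so lack of p53 is common to all 3 groups. The growth protocol of the normal samples mentions injections of saline or killed pneumococci without saying whether these donors received them. The labels do not say that replicates are separate animals, and p-values then measure the spread between these samples, which may be technical.

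The promoters of Id2 and Id3 are shown first because both genes were called between lymphomas and resting cells, in opposite directions. They are RefSeq windows on build GRCm38.p6, from 250 bases before to 50 after the transcription start, read 5′ to 3′ on the strand of the gene. That of Id2 lies on the minus strand at chr12:25096043-25096342, and that of Id3 on the plus strand at chr4:136143572-136143871. Capitals mark CANNTG, which reads as itself on either strand in its fixed letters. The Id2 window holds 1 E box, CAGCTG, and the Id3 window holds 0. Of 32851 mouse promoter windows of the same length, 72.3% hold at least 1, so neither result sets these promoters apart.
Id2: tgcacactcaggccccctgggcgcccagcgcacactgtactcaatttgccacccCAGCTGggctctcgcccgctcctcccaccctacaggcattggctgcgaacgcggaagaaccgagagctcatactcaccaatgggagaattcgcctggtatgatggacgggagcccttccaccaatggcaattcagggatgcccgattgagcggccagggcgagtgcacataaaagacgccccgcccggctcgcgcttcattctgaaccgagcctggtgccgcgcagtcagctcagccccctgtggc
Id3: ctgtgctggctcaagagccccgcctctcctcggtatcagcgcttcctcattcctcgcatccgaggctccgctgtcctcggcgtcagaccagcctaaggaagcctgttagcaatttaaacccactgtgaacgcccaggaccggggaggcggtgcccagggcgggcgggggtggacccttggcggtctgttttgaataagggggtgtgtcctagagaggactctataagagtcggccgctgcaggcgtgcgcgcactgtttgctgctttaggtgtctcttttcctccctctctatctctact

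For the Runx genes the windows of the first listed start are shown because Runx1 and Runx3 share a stretch of sequence there. Runx1 lies on the minus strand at chr16:92826025-92826324 and Runx3 on the plus strand at chr4:135120395-135120694. Capitals mark the Runx motif, searched as TGTGGT and its reverse complement ACCACA. Each window holds 2 matches, which do not overlap. The windows of the second listed start, chr16:92697280-92697579 for Runx1 and chr4:135152295-135152594 for Runx3, hold 0 matches each. At least 1 match is present in 16.8% of the 32851 windows and at least 2 in 1.81%.
Runx1: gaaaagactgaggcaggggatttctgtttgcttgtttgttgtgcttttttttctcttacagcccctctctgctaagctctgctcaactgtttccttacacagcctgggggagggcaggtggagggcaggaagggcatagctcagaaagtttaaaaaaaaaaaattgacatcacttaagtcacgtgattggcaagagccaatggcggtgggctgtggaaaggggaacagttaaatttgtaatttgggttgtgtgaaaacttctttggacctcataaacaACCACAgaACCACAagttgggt
Runx3: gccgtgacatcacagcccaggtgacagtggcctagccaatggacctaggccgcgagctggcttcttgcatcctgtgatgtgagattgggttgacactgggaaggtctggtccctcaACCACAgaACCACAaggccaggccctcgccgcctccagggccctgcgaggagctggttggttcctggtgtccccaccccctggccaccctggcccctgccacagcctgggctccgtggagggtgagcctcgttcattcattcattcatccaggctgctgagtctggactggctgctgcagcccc
Both matches of each window lie in a common stretch of 18 bases, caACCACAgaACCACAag. It spans bases 27 to 44 after the start in Runx1 and bases -136 to -119, before the start, in Runx3. The first window of Runx2, on chromosome 17, holds it too, at bases 22 to 39 after the start. Of the 32851 windows, 3 hold this stretch, and they are these 3 genes. A match describes the letters only and is not evidence of binding.

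Values below are log2 of the array signal with a floor of 32, which is 5 on that scale. A probe set was tested with limma where its signal was at least 100 in at least 3 of the 15 arrays. It was called where the Benjamini-Hochberg adjusted p, taken over all 22364 probe sets tested, was under 0.05 and the change was at least 2-fold. Of the 27 probe sets, 25 were tested; 1 of Tcf3 and 1 of Tcf4 stayed near the floor and were not. Each gene was counted by its brightest probe set on average, and all probe sets are described. Probe sets differ in their response to RNA, so their levels are not ranked against each other.

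All arrays had a trimmed mean signal of 500. The median signal lay between 68.0 and 116.2 in lymphomas, between 110.5 and 118.3 in activated cells and between 91.7 and 99.2 in resting cells. The median SD of a tested probe set was 0.61 in lymphomas, 0.21 in activated cells and 0.24 in resting cells. Signal at the 3′ end of actin divided by that at its 5′ end, a sign of RNA degradation where large, was 1.47 to 2.65 in lymphomas, 1.49 to 1.54 in activated cells and 1.26 to 1.50 in resting cells. The amplification kit is named for the normal cells only and a software version for the lymphomas only, so any batch of this kind and the difference between lymphomas and normal cells cannot be told apart. Over all tested probe sets the median difference was -0.117 for lymphomas minus resting cells, -0.199 for lymphomas minus activated cells and 0.051 for activated minus resting cells. Centring each array on its median turned these into -0.019, 0.178 and -0.213.

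The mean over 11 markers of T cell identity was 8.70 to 11.33 in lymphomas, 12.72 to 12.78 in activated cells and 12.90 to 13.06 in resting cells, with none of the 11 at the floor in every array of a group. Markers of other cells moved between the groups as well. The mean over 10 neutrophil markers was 8.09 to 11.53 in mPTCL 1, 2, 4, 5, 8 and 9 and 5.63 to 7.88 in the other 3 lymphomas, and its highest value in a normal array was 5.87. That over 10 macrophage markers was 5.60 to 10.67 in lymphomas, 5.54 to 5.65 in activated cells and 7.28 to 7.94 in resting cells. In activated cells 3 neutrophil markers (S100a9, Lcn2 and Cxcr2) and 3 macrophage markers (C1qa, C1qc and Clec4f) were at the floor in every array. The part of these cells in the results was not tested. Values without the lymphomas concerned are given in places. Without the 6 high in neutrophil markers only 3 lymphomas remain, so a lost call and fewer arrays cannot be told apart. Those 3 are not free of this signal, as mPTCL 6 had 7.88, near the 8.09 of mPTCL 9. In sorted bulk samples, fewer cells of a type and less RNA per cell cannot be told apart.

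In lymphomas against resting cells, Id2 and Runx3 were higher and Id3 was lower, so that 3 of the 8 genes were called and 5 were not. Over all 11907 genes tested, 7.4% were called higher and 7.39% lower. By probe set, 3 of 25 were higher (1 of Id2 and 2 of Runx3) and 2 were lower (Id3 and 1 of Runx1), against a background of 6.35% higher and 9.22% lower. In lymphomas against activated cells, Id2 was higher and Tcf12 was lower, and 6 genes were not called. Here 7.39% of all genes were higher and 8.99% lower, and by probe set 2 of 25 were higher (both of Id2) and 1 was lower (Tcf12), against 6.15% and 12.2%. In activated against resting cells, Runx3 was higher, no member gene was called lower and 7 genes were not called. Of all genes 8.37% were called higher and 4.22% lower. At an unadjusted p under 0.05 by limma, 2 member genes were higher and 3 lower, against 21.4% and 21.7% of all genes. By probe set 3 of 25 were higher (2 of Runx3 and 1 of Tcf12) and 0 were lower by limma, against 7.9% and 3.84%, while 8 were higher and 6 lower at an unadjusted p under 0.05, against 21.4% and 18.5% of all probe sets. Both lymphoma comparisons contain the same 9 lymphomas, and each normal group enters 2 of the 3 comparisons.

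**Figure D1:**
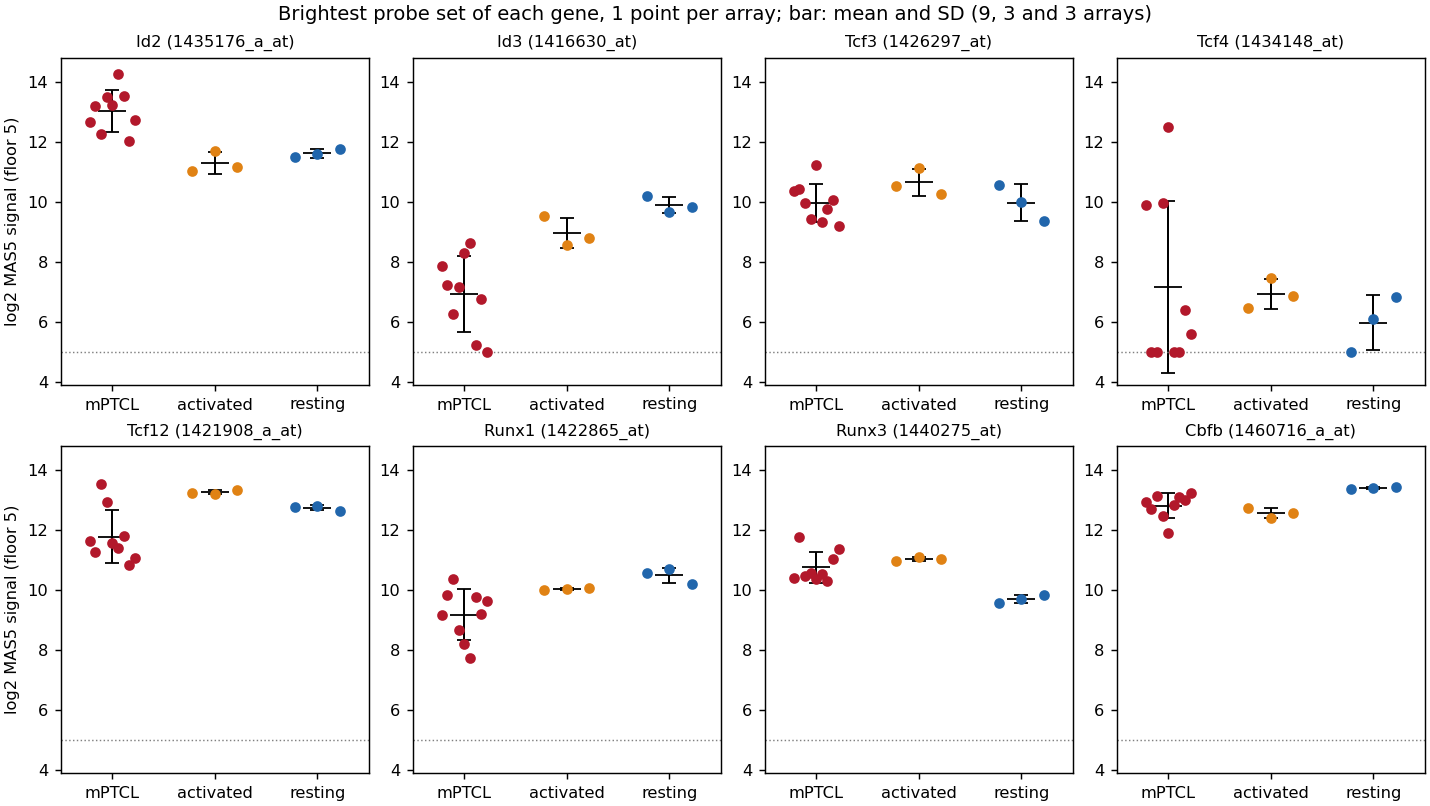
Log2 signal of the brightest probe set of each of the 8 genes (vertical axis, with the floor at 5 dotted), 1 point per array in 9 lymphomas, 3 activated and 3 resting samples; bars give the mean and SD. Id2 lies above both normal groups in every lymphoma, Id3 lies below every resting array, and Tcf4 is high in 3 lymphomas only.

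Id2, the Id protein of effector and innate lymphocytes, is represented by 3 probe sets that disagree in size and call. For 1435176_a_at the log2 signal was 12.66, 13.21, 12.26, 13.49, 13.22, 14.28, 13.53, 12.04 and 12.73 in mPTCL 1 to 9. It was 11.03, 11.71 and 11.16 in activated cells and 11.50, 11.59 and 11.78 in resting cells. Every lymphoma lay above every normal array, with mPTCL 6 highest and mPTCL 8 lowest among the lymphomas. The mean in lymphomas, 13.05 ± 0.70 (SD, n = 9), exceeded that in activated cells, 11.30 ± 0.36 (n = 3), by 1.75 ± 0.39 (SE; 3.35-fold, limma adjusted p = 0.00721), a call kept in every alternative run. It exceeded that in resting cells, 11.62 ± 0.15 (n = 3), by 1.42 ± 0.38 (2.68-fold, limma adjusted p = 0.0199). Leaving out resting replicate 1, 2 or 3 took this second call to an adjusted p of 0.0883, 0.0834 or 0.0652, and without the 6 lymphomas high in neutrophil markers the difference was 1.73 (adjusted p = 0.0589). Activated and resting cells did not differ beyond their spread (-0.32 ± 0.19, limma adjusted p = 0.248).

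The probe set 1422537_a_at of Id2 followed the first closely, with a Pearson r of 0.94 over the 15 arrays. Its log2 signal ran from 9.23 in mPTCL 8 through a median of 11.06 to 12.20 in mPTCL 6. It was 8.86, 9.74 and 8.85 in activated cells and 9.77, 9.72 and 9.49 in resting cells. In this probe set mPTCL 8 fell inside the range of the activated arrays and below that of the resting arrays, while the other 8 lymphomas lay above both. The mean over 4 hepatocyte markers was 8.60 in mPTCL 8, 5.06 to 5.88 in the other lymphomas and 5.29 to 5.86 in normal arrays. The part of such cells in its Id2 signal was not tested. The difference from activated cells was 1.67 ± 0.52 (3.18-fold, limma adjusted p = 0.033), and that from resting cells, 1.16 ± 0.50, was not called (adjusted p = 0.12). Without mPTCL 8 the difference from resting cells was 1.36 and was called (adjusted p = 0.0417). The call against activated cells was lost without filter (adjusted p = 0.0651), without mPTCL 2 (0.051), without any 1 activated array (0.0608 to 0.136), without mPTCL 1, 4 and 5 (0.0684) and without the 6 lymphomas high in neutrophil markers (2.07, 0.0521).

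The probe set 1453596_at of Id2 was not called in any of the 3 comparisons. Its log2 signal was 6.08, 8.78, 7.02, 8.21, 7.75, 9.65, 9.29, 6.15 and 5.93 in mPTCL 1 to 9, against 6.96, 7.28 and 7.22 in activated cells and 7.05, 7.28 and 7.43 in resting cells. Here mPTCL 2, 4, 5, 6 and 7 lay above all resting arrays and mPTCL 1, 3, 8 and 9 below them. The SD in lymphomas was 1.43, and the differences from activated cells (0.50 ± 0.76, adjusted p = 0.661) and from resting cells (0.40 ± 0.76, adjusted p = 0.743) were smaller than their errors. Its correlation with the other 2 probe sets was 0.63 and 0.68 over the 15 arrays and 0.86 and 0.81 over the 9 lymphomas, where all 3 had their highest value in mPTCL 6. These points share arrays and overall scaling. The sequences of the probes were not used here, and the cause of the disagreement was not tested.

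**Figure D2:**
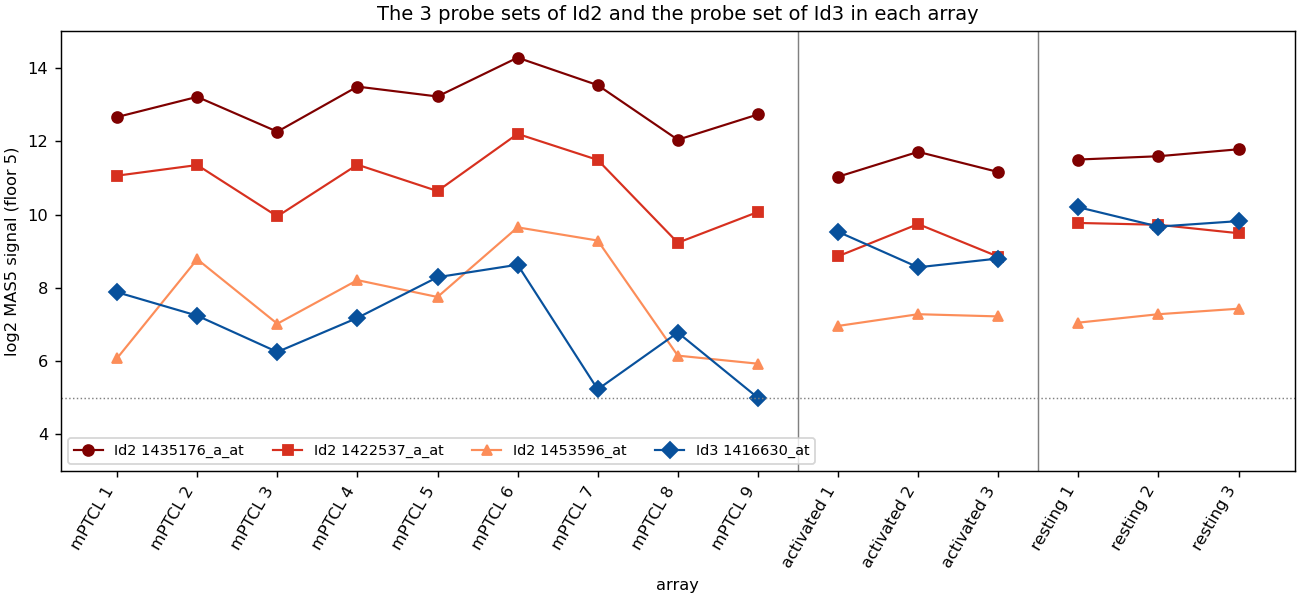
Log2 signal (vertical axis, floor at 5 dotted) of the 3 probe sets of Id2 and the probe set of Id3 in each of the 15 arrays (horizontal axis). All 3 Id2 probe sets peak in mPTCL 6, 1453596_at lies below its resting range in mPTCL 1, 3, 8 and 9, and Id3 reaches the floor in mPTCL 9.

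Id3, the other Id protein of T cells and a gene of the naive state, was lowest in lymphomas and highest in resting cells. Its probe set 1416630_at had log2 signals of 7.88, 7.24, 6.25, 7.18, 8.29, 8.63, 5.23, 6.78 and 5.00 in mPTCL 1 to 9. Activated cells had 9.53, 8.56 and 8.80, and resting cells had 10.20, 9.67 and 9.82. All 9 lymphomas lay below every resting array, and mPTCL 9 was at the floor. The mean of 6.94 ± 1.27 (SD, n = 9) in lymphomas stood against 9.90 ± 0.28 (n = 3) in resting cells, a difference of -2.95 ± 0.68 log2 units (SE; at least 7.75-fold lower, limma adjusted p = 0.0102). Without resting replicate 1 the adjusted p was 0.0578.

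Against activated cells, the difference of Id3 was -2.02 ± 0.69 log2 units and lay just outside the threshold (limma adjusted p = 0.0507), with mPTCL 6 alone above the lowest activated array. It was called in 9 of the alternatives, among them a floor of 64 (adjusted p = 0.0286) and the fit without mPTCL 1, 4 and 5 (-2.44, adjusted p = 0.0257). All 3 activated arrays in turn lay below all 3 resting arrays (-0.93 ± 0.28, 1.91-fold, limma adjusted p = 0.0482), which is under the 2-fold limit. With each array centred on its median this difference was -1.21 and was called (adjusted p = 0.0207). Id2 and Id3 thus differed from resting cells in opposite directions in each of the 9 lymphomas when Id2 is read from its brightest probe set. Among the lymphomas the pair did not run in opposite order, since mPTCL 6 had the highest signal of both genes.

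Tcf3, the gene of E2A, was not called in any of the 3 comparisons. In 1426297_at the log2 signal ran from 9.21 in mPTCL 9 through a median of 9.95 to 11.22 in mPTCL 5. It was 10.54, 11.14 and 10.28 in activated cells and 10.58, 10.00 and 9.36 in resting cells, so that all 3 groups overlapped. The difference from resting cells was -0.01 ± 0.40 (adjusted p = 0.988), which turned to 0.06 with quantile normalisation and 0.09 with median centring. Against activated cells it was -0.68 ± 0.38 (adjusted p = 0.206). The second tested probe set, 1427764_a_at, gave -0.03 ± 0.38 and -0.85 ± 0.37 for the same comparisons (adjusted p = 0.963 and 0.106). In that probe set all 3 activated arrays (8.11, 8.37 and 8.28) lay above all 3 resting arrays (7.76, 7.17 and 7.38), a difference of 0.82 ± 0.23 (1.76-fold, limma adjusted p = 0.0394) under the 2-fold limit.

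Tcf4, the gene of E2-2, is known as the E protein of plasmacytoid dendritic cells and B cells, and it was high in 3 lymphomas. In 1434148_at the log2 signal was 9.90, 5.00, 5.00, 9.98, 12.51, 5.00, 5.00, 6.39 and 5.61 in mPTCL 1 to 9, against 6.46, 7.47 and 6.87 in activated cells and 5.00, 6.09 and 6.83 in resting cells. Only mPTCL 1, 4 and 5 lay above the normal arrays, while mPTCL 2, 3, 6 and 7 were at the floor. The other 4 tested probe sets had the same 3 lymphomas on top, at 7.13 to 11.95, and correlated with each other and with the first at 0.91 to 0.97 over the 15 arrays. As the SD in lymphomas was 2.87, the difference was 1.18 ± 1.50 from resting cells (adjusted p = 0.609) and 0.22 ± 1.49 from activated cells (adjusted p = 0.928). With a floor of 16 the difference from activated cells turned to -0.23.

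The same 3 lymphomas had the highest mean of B cell markers, with mPTCL 4 close to the normal arrays. The mean over 13 of them was 10.34, 8.43 and 11.05 in mPTCL 1, 4 and 5, between 5.90 and 7.15 in the other 6 lymphomas, between 6.57 and 8.16 in activated cells and between 7.70 and 8.34 in resting cells. Their summed signal was 36110, 7563 and 72570 in mPTCL 1, 4 and 5 and 1128 to 4594 in the other 6, against 2477 to 7801 in activated cells and 4718 to 6714 in resting cells. By this sum mPTCL 4 lay below activated replicate 2, although its Tcf4 signal was like that of mPTCL 1. None of the 13 was at the floor throughout a group. The mean over 10 markers of plasmacytoid dendritic cells was 8.86, 8.26, 8.79 and 7.84 in mPTCL 1, 3, 4 and 5. It was 6.75 to 7.10 in the other lymphomas, 7.38 to 7.44 in activated cells and 7.44 to 7.69 in resting cells, with mPTCL 3 high in these markers and at the floor for Tcf4. Without mPTCL 1, 4 and 5 the difference of Tcf4 from resting cells was -0.64 (adjusted p = 0.343). That from activated cells was -1.60, and it then passed the limits as lower in lymphomas (limma adjusted p = 0.0147), with 4 of the 6 remaining lymphomas at the floor. As the 3 left out were also the highest in Tcf4 itself, the removal of its high values and a lower level cannot be told apart.

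**Figure D3:**
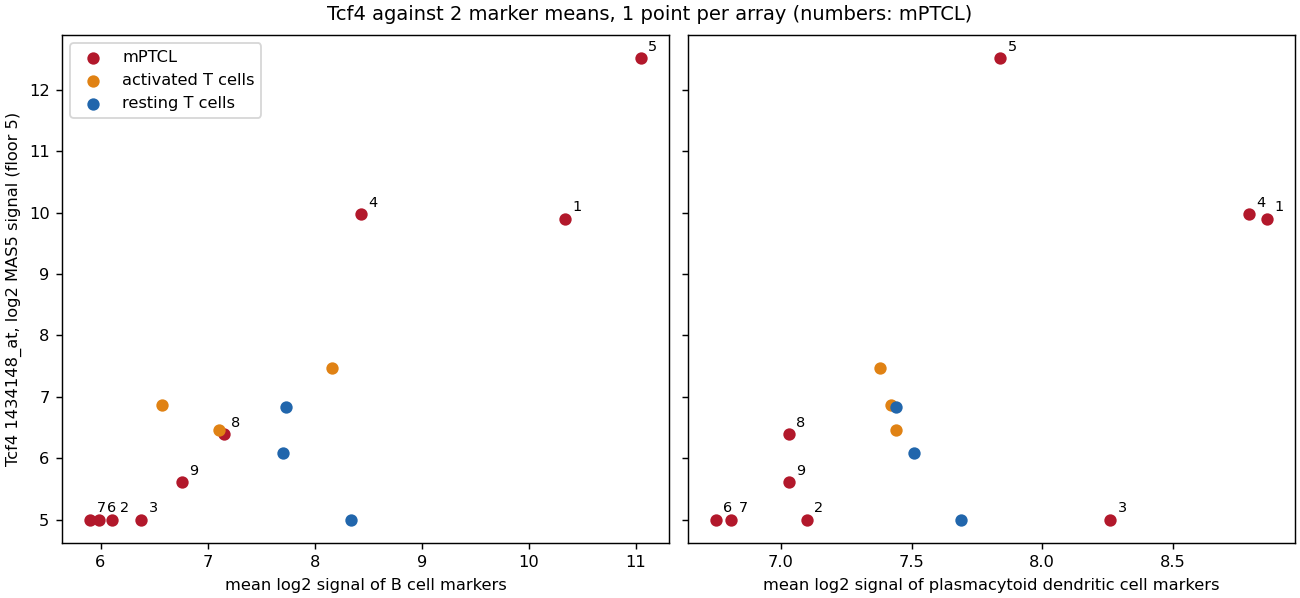
Log2 signal of Tcf4 1434148_at (vertical axis) against the mean log2 signal of 13 B cell markers (left) and of 10 plasmacytoid dendritic cell markers (right), 1 point per array, with lymphomas numbered. At left, lymphomas 1 and 5 lie apart from the normal arrays on both axes and lymphoma 4 (marker mean 8.43) mainly on the Tcf4 axis, while lymphoma 3 at right has a marker mean of 8.26 with Tcf4 at the floor.

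Tcf12, the gene of the E protein HEB, which acts with E2A in thymocytes, was lower in lymphomas than in activated cells. In 1421908_a_at the log2 signal was 11.65, 11.27, 13.53, 12.94, 11.56, 11.40, 11.81, 10.84 and 11.06 in mPTCL 1 to 9, against 13.25, 13.21 and 13.34 in activated cells and 12.77, 12.82 and 12.65 in resting cells. The lymphomas mPTCL 3 and mPTCL 4 stood above all resting arrays and the other 7 below all normal arrays. The mean of 11.78 ± 0.89 (SD, n = 9) in lymphomas stood against 13.27 ± 0.07 (n = 3) in activated cells, a difference of -1.49 ± 0.47 log2 units (SE; 2.8-fold, limma adjusted p = 0.0369). Against resting cells, at 12.75 ± 0.09 (n = 3), the difference of -0.96 ± 0.47 was not called (adjusted p = 0.17), and without mPTCL 3 it was -1.18 and called (adjusted p = 0.0322). The call against activated cells was lost without the 6 lymphomas high in neutrophil markers (-1.03, adjusted p = 0.198), with median centring (-1.10, adjusted p = 0.0887), without filter (adjusted p = 0.0741) and in 8 of the 12 fits that left out an array (adjusted p 0.0519 to 0.125), those of mPTCL 1, 2, 6, 8 and 9 and of each activated array.

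The other 4 probe sets of Tcf12 differed from resting cells by -0.56 to 0.08 and from activated cells by -1.84 to -0.53 in lymphomas, and none of these was called. All 5 probe sets had their highest lymphoma signal in mPTCL 3, followed by mPTCL 4. Activated minus resting cells, the 5 had differences of 0.52 to 1.28. The difference was called in 1439619_at (9.33, 8.85 and 9.79 in activated cells against 8.18, 7.86 and 8.09 in resting cells; 1.28 ± 0.26, 2.44-fold, limma adjusted p = 0.0132). In the brightest probe set it was 0.52 ± 0.09 (1.44-fold, limma adjusted p = 0.00698), under the 2-fold limit. With all 15 arrays in 1 fit, 1439619_at was not called (adjusted p = 0.488).

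**Figure D4:**
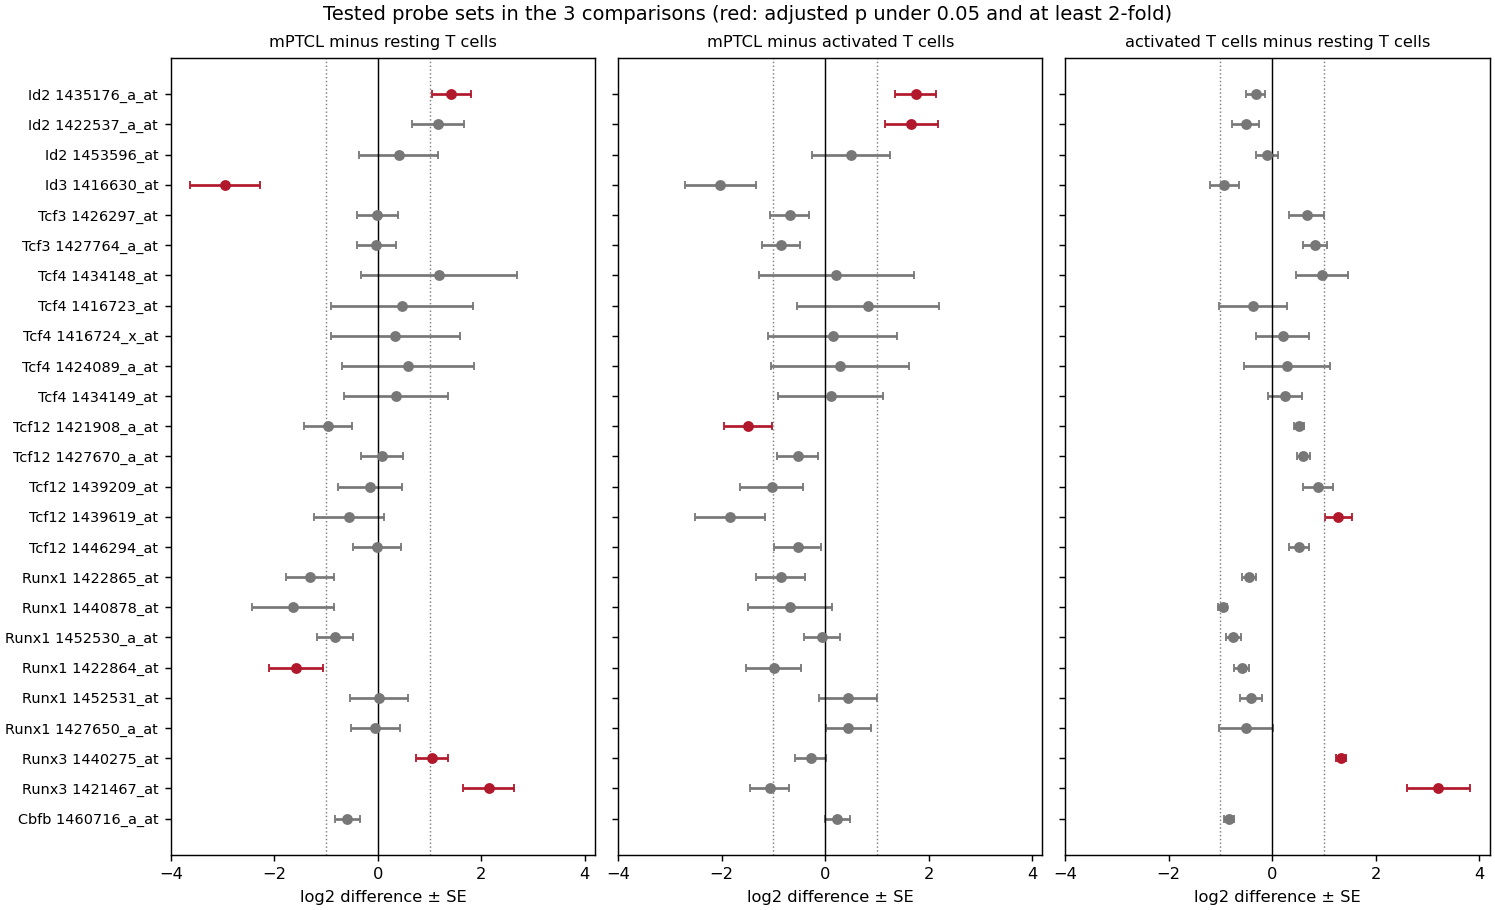
Log2 difference with its SE (horizontal axis) for the 25 tested probe sets in the 3 comparisons; red marks an adjusted p under 0.05 with at least 2-fold change, and dotted lines mark 2-fold. Against resting cells, Id2 1435176_a_at and both Runx3 probe sets are red to the right and Id3 and Runx1 1422864_at red to the left, and the wide bars of Tcf4 cover 0 against resting and against activated cells.

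Runx1, the Runx factor of naive T cells, gave different answers by probe set. In its brightest probe set, 1422865_at, the log2 signal was 9.18, 9.83, 10.38, 8.68, 8.21, 7.72, 9.78, 9.20 and 9.64 in mPTCL 1 to 9. It was 10.01, 10.05 and 10.06 in activated cells and 10.57, 10.69 and 10.20 in resting cells. All lymphomas but mPTCL 3 lay below every normal array, and mPTCL 6, 5 and 4 were the lowest. The difference was -1.31 ± 0.47 from resting cells (2.47-fold, limma adjusted p = 0.0668) and -0.86 ± 0.47 from activated cells (adjusted p = 0.194), neither called. Without mPTCL 3 the first was -1.46 and called (adjusted p = 0.0317).

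The probe set 1422864_at of Runx1 was called lower against resting cells, with log2 signals from 6.60 in mPTCL 6 through a median of 8.05 to 9.61 in mPTCL 3, against 9.55, 9.56 and 9.40 in resting cells. This difference of -1.58 ± 0.52 (2.99-fold, limma adjusted p = 0.0492) passed barely, and the call was lost in 10 of the 12 fits that left out an array, kept only without mPTCL 3 or mPTCL 7. The probe set 1440878_at gave -1.64 ± 0.80 and 1452530_a_at -0.82 ± 0.35, neither called, while 1452531_at (0.03 ± 0.56) and 1427650_a_at (-0.05 ± 0.47) had differences smaller than their errors. Pairs of the 6 probe sets correlated at -0.05 to 0.97 over the 15 arrays. Activated minus resting cells, the 6 had differences of -0.96 to -0.41, none of them called. The most closely spaced was 1440878_at, at 9.42, 9.43 and 9.39 in activated cells against 10.40, 10.34 and 10.37 in resting cells (-0.96 ± 0.09, 1.94-fold, limma adjusted p = 9.00e-04), still under the 2-fold limit.

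Runx3, the Runx factor of CD8 and NK cells, was higher than in resting cells both in lymphomas and in activated cells. In 1440275_at the log2 signal was 10.39, 11.78, 10.47, 10.57, 10.38, 10.54, 10.29, 11.03 and 11.36 in mPTCL 1 to 9. It was 10.96, 11.11 and 11.02 in activated cells and 9.57, 9.69 and 9.84 in resting cells. All 9 lymphomas and all 3 activated arrays lay above every resting array. The difference from resting cells was 1.05 ± 0.31 in lymphomas (2.08-fold, limma adjusted p = 0.0293) and 1.33 ± 0.10 in activated cells (2.51-fold, limma adjusted p = 5.08e-04). Lymphomas and activated cells overlapped, with a difference of -0.28 ± 0.30 (adjusted p = 0.528) that turned to 0.11 with median centring. The lymphoma call was lost with median centring (1.16, adjusted p = 0.0546), without mPTCL 2 (0.93) or mPTCL 9 (0.98), which took it under 2-fold, and without any 1 resting array (adjusted p 0.0835 to 0.12). The activation call was lost with all 15 arrays in 1 fit (adjusted p = 0.0501).

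The second probe set, 1421467_at, gave the same order against resting cells. Its log2 signal ran from 7.21 in mPTCL 1 through a median of 7.86 to 8.95 in mPTCL 2, and it was 8.64, 9.17 and 9.18 in activated cells and 5.12, 7.25 and 5.00 in resting cells. Resting replicate 2 lay inside the lymphoma range, and resting replicate 3 was at the floor. Lymphomas were at least 4.41-fold higher than resting cells (2.14 ± 0.49, limma adjusted p = 0.00957), a call lost without the 6 lymphomas high in neutrophil markers (1.93, adjusted p = 0.093) and without resting replicate 1 (0.07) or 3 (0.0749). Activated cells were at least 9.24-fold higher than resting cells (3.21 ± 0.61, limma adjusted p = 0.0109), a call lost without filter (0.0536). Unlike in 1440275_at, 7 of the 9 lymphomas lay below every activated array and 0 above. This difference of -1.07 ± 0.37 (2.09-fold, limma adjusted p = 0.0507) lay just outside the threshold and was called in 2 of the 12 fits that left out an array. The lymphomas mPTCL 2, 9 and 8 were the highest in 1440275_at, and mPTCL 2, 9 and 6 in 1421467_at.

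The lymphomas mPTCL 2, 8 and 9 also had the highest mean over 11 NK cell and innate-like markers, at 11.80, 11.47 and 11.09. It was 7.73 to 9.53 in the other 6 lymphomas, 8.88 to 9.02 in activated cells and 8.40 to 8.73 in resting cells, and the NK receptor gene Ncr1 was at the floor in all activated arrays. By the summed signal of these markers the order differed, with mPTCL 2 (88860) and 9 (82550) on top and mPTCL 6 (57480) above mPTCL 8 (53920). The lymphomas mPTCL 2, 8 and 9 had the lowest log2 signals of Tcf12 1421908_a_at, at 11.27, 10.84 and 11.06. No other Tcf12 probe set had these 3 as its lowest. In 1439209_at and 1439619_at mPTCL 6 was lowest (6.58 and 6.28), and in 1427670_a_at mPTCL 5 (10.95) lay below mPTCL 9 (11.55). The part of this programme in either gene's difference was not tested.

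Cbfb, the partner through which Runx1 and Runx3 bind DNA stably, was highest in resting cells. Its probe set 1460716_a_at ran from 11.90 in mPTCL 5 through a median of 12.94 to 13.24 in mPTCL 9, against 12.73, 12.42 and 12.57 in activated cells and 13.36, 13.40 and 13.45 in resting cells. All lymphomas and all activated arrays lay below every resting array. The difference from resting cells was -0.59 ± 0.24 in lymphomas (1.5-fold, limma adjusted p = 0.106) and -0.83 ± 0.10 in activated cells (1.78-fold, limma adjusted p = 0.0025), both under 2-fold. With median centring the second was -1.11 and was called. Lymphomas and activated cells differed by 0.24 ± 0.25 (adjusted p = 0.488).

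**Figure D5:**
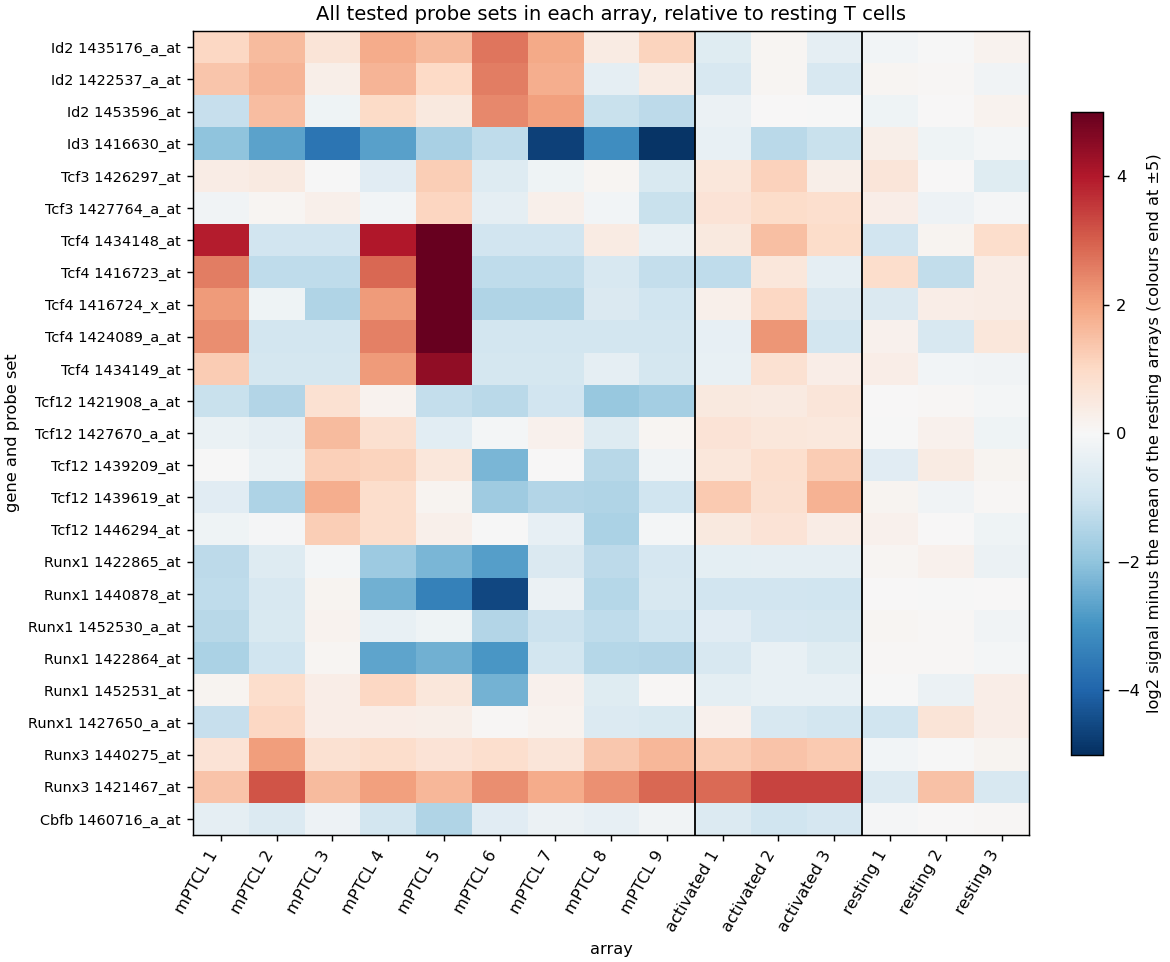
Log2 signal of each tested probe set (rows) in each array (columns) minus its mean in resting cells, as colour; the scale saturates for Tcf4 in mPTCL 5. Id2 1435176_a_at is red and Id3 blue in all 9 lymphomas, while Id2 1453596_at is blue in mPTCL 1, 3, 8 and 9 and 1422537_a_at in mPTCL 8. Runx3 is red in lymphomas and activated cells, and each Tcf4 row is reddest in mPTCL 5, with red also in mPTCL 1 and 4 and in activated replicate 2.

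Ordered by group mean of the brightest probe set, Id2 ran lymphomas, resting and activated cells from high to low, with the 2 normal groups not differing beyond their spread. Id3 and Cbfb were both highest in resting cells, followed by activated cells and lymphomas for Id3 and by lymphomas and activated cells for Cbfb. Runx1 had the order resting, activated and lymphomas. Runx3 had activated cells, lymphomas and resting cells, the first and second overlapping. Tcf12 had activated cells, resting cells and lymphomas. Tcf3 had activated cells, resting cells and lymphomas, and Tcf4 lymphomas, activated and resting cells. Of these neighbours, lymphomas and resting cells passed both limits for Id2 and Runx3, and the others did not.

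Partners and targets of these factors were read from 3 lists of 20 genes, counted by 1 probe set per gene. The lists were chosen with earlier results of these data known, so their counts and medians are a description only. That of Runx targets mixes Cd4, which Runx3 silences, with cytotoxic genes it supports, so its direction has no single meaning. The shares of all 11907 genes called, given above, were 7.4% higher and 7.39% lower for lymphomas against resting cells, 7.39% and 8.99% against activated cells, and 8.37% and 4.22% for activated against resting cells. At an unadjusted p under 0.05 they were 16% and 17.8%, 16.6% and 19.7%, and 21.4% and 21.7% in the same order. Among 15 tested genes listed as helix-loop-helix partners and cofactors, 2 rose and 2 fell in lymphomas against resting cells. The median difference was 1.13 beside -0.02 over all 11907 genes. The repressor Bhlhe40 was at least 20.1-fold higher and the Notch target Hes1 at least 4.83-fold higher (limma adjusted p = 3.53e-04 and 0.0214). Lef1, a Wnt pathway factor on this list that has no helix-loop-helix, fell by 3.87 log2 units (limma adjusted p = 9.86e-04). The adaptor Ldb1, which bridges helix-loop-helix complexes, fell by 1.18 log2 units (limma adjusted p = 0.0235). Against activated cells 0 rose by limma (1 higher at an unadjusted p under 0.05) and 2 fell, again Lef1 (-3.65) and Ldb1 (-1.26), with a list median of 0.26 beside -0.07. In activated against resting cells 3 rose and 0 fell (4 higher and 0 lower at an unadjusted p under 0.05), with a median of 0.40 beside 0.02. These were Bhlhe40 (at least 18.2-fold), the repressor Gfi1 (2.07 log2 units) and the corepressor Cbfa2t3 (1.42).

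Of 17 tested genes described as E protein targets in the T lineage, 2 rose and 3 fell in lymphomas against resting cells (list median -1.47). The interleukin-7 receptor gene Il7r fell by 4.78 log2 units (limma adjusted p = 0.0352) and the coreceptor gene Cd4 was at least 22.1-fold lower (adjusted p = 0.0227), while Hes1, also counted above, and the cell cycle inhibitor Cdkn1a (1.93) rose. Against activated cells 0 rose (1 higher at an unadjusted p under 0.05) and 4 fell (median -0.46). Dntt, which adds bases at receptor gene joints, was at least 16.6-fold lower with 6 lymphomas at the floor, and the cytokine signal inhibitor Socs1 fell by 1.99. Cd4 (at least 15.4-fold lower) and the naive cell factor Foxo1 (-1.41) were the other members. In activated against resting cells 4 rose and 2 fell (median 0.42), with Egr3 (-3.12) and Egr2 (-2.80), immediate targets of receptor signals, lower and Gfi1 and Dntt (1.50) higher.

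Of 18 tested genes described as Runx targets in T and NK cells, 0 rose and 7 fell in lymphomas against resting cells (list median -1.60), with 2 higher and 9 lower at an unadjusted p under 0.05. Coreceptor gene Cd8b1 was at least 63.7-fold lower (limma adjusted p = 3.88e-04) and the chromatin organiser Satb1 at least 25.6-fold lower (adjusted p = 0.00623), with Il7r and Cd4 as above. Against activated cells 0 rose and 9 fell (median -1.80; 0 higher and 10 lower at an unadjusted p under 0.05), among them Cd8b1 (at least 70.2-fold lower), Satb1 (at least 42.2-fold lower), Cd8a (-3.95) and Cd4. In activated against resting cells 4 rose and 1 fell (median 0.13). Granzyme gene Gzmb rose by 4.71, the cytokine receptor gene Il2rb by 1.72 and the factor Tbx21 by 1.47 log2 units, and the perforin gene Prf1 fell by 1.80 (limma adjusted p 9.17e-04 to 0.00303). The lists share genes with each other, and that of Runx targets holds Bcl11b of the T cell markers and Gzmb, Prf1, Eomes and Tbx21 of the NK cell markers.

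The genes with the most similar pattern were read over the 15 arrays from 11907 genes by Pearson r, leaving out predicted and clone-named genes. They are a description of arrays that share groups and scaling. For Id2 they were Ago3, Akr1a1 and Rraga (0.93 each). Id3 was followed by Klf2, a factor of naive T cells (0.93), and by Galm and Herc4 (0.92 each), and Tcf3 by Prss39, Ppbp and Efna2 (0.85, 0.79 and 0.78). For Tcf4 they were Map3k9, the B cell adaptor gene Blnk, which is one of the 13 B cell markers, and Trim7 (0.96, 0.95 and 0.94). Tcf12 was followed by Patj, Tha1 and Insr (0.95, 0.94 and 0.94), and Runx1 by Pex6, Afg1l and Klhl25 (0.94, 0.93 and 0.92). Runx3 was followed by the mitotic genes Ckap2l, Aurka and Nusap1 (0.93, 0.92 and 0.91), and Cbfb by Jkamp, Ppp2r1b and Pofut2 (0.93, 0.92 and 0.92).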

How the data were processed

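RNA of 9 lymphomas, 3 activated and 3 resting T cell samples was measured, 1 array each. The authors deposited linear intensity per probe set, made with MAS5 in Affymetrix Expression Console per the submitters' processing notes. Version 1.1 is named for the lymphomas; for the normal cells no version is given in the sources used here. Each array is scaled to 1 trimmed mean (2% trimmed, tested on the values), so a signal is relative to the rest of its array. No detection calls were used, and the number of arrays limits the precision.

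Values below 32 were set to 32 and log2 was taken. Probe sets with 1 gene symbol were used (34945; 932 have several and 9211 none), and 34741 symbols were updated by gene identifier. Groups came from the labels. Tests used limma 3.58.1 in R 4.3.3 (lmFit, eBayes with a trend, 2-sided) on the arrays of the groups compared, after a filter of 100 in 3 arrays, with Benjamini-Hochberg adjustment over 22364 probe sets. A fold against arrays at the floor is a lower bound. The fit was tested on simulated data with known changes.

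All member probe sets are described. Of each list at most 4 called genes with the largest changes are named per comparison. As similar genes the 3 highest correlations per member are named, after predicted and clone-named genes were left out. Members and lists were chosen with earlier results of these data known. The tests were repeated with another floor (16 or 64) or with 16 added before log2 in its place. They were also run unfiltered or with the filter raised to 200, and after quantile normalisation or median centring. In other fits 1 probe set per gene was used, or probe sets with names ending in _x_at or _s_at were left out. Those ending in _a_at were kept. Further repeats used 1 fit over all 15 arrays, array weights, eBayes without a trend, the adjusted p alone and a replicate block. Others left out each array, the 3 lymphomas with the highest mean of B cell markers, or the 6 high in neutrophil markers. Runx2 and the deleted p53 gene were not analysed here.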

Additional observations from a re-analysis of the deposited data

Results flagged for a closer look

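In Runx1 1452531_at, mPTCL 6 was the lowest of 9 lymphomas at 6.05, apart from the rest, whose lowest was 7.81. Its gap to the nearest lymphoma was 0.52 of the group's whole range, above Dixon's critical value for 9 samples. It was the 1 flag among 25 probe sets examined in the lymphomas, and chance gives about 1 in 20 groups. The same lymphoma was the lowest in 4 other Runx1 probe sets, 1422865_at (7.72), 1440878_at (5.82), 1452530_a_at (7.93) and 1422864_at (6.60), and the highest in all 3 of Id2.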

How the results depend on the processing

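Of 824 alternative values for 34 results (the brightest probe sets, all of Id2 and the called ones), 732 kept direction and side of the threshold, 53 lost a call, 21 gained one and 18 changed sign. The other 41 probe set results gave 93 changes of sign in 969 values. Of these, 3, all of Tcf4, had a limma adjusted p under 0.05 as lower in lymphomas. They arose once mPTCL 1, 4 and 5, the lymphomas highest in Tcf4, were among those left out. That removal and a lower level cannot be told apart. The 3 genes called against resting cells became 1 without mPTCL 1, 2, 4, 5, 8 and 9, and 0 to 5 with 1 array left out (0 without resting replicate 1, 5 without mPTCL 3). The 2 called against activated cells became 1 without filter or with median centring and 1 to 3 with 1 array left out. They became 4 without mPTCL 1, 4 and 5, with Tcf4, which was highest in the lymphomas left out, among the 4. The 1 called in activated against resting cells became 3 with median centring, 0 with all 15 arrays in 1 fit and 1 to 2 with 1 array left out. By adjusted p alone it became 4, a limit for which the share of all genes was not taken. Without those 6 lymphomas, Id2 1435176_a_at against resting cells was 1.73 (limma adjusted p = 0.0589) and Runx3 1440275_at was 0.73 (0.0577).

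Sign changes were those of Tcf3 1426297_at against resting cells (0.06 with quantile normalisation, 0.09 with median centring, -0.32 to 0.29 with 1 array left out), Tcf4 1434148_at against resting cells (-0.97 without the 6 lymphomas, -0.64 without mPTCL 1, 4 and 5) and against activated cells (-0.23 at a floor of 16, -0.19 for the value plus 16, -1.94 and -1.60 without the same 6 and 3, -0.45 to 0.49 with 1 array left out), and Runx3 1440275_at against activated cells (0.11 with median centring). The cause was not tested beyond what each alternative leaves out.

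Activated and resting replicates share numbers, and the labels do not say whether they are paired. Correlations of their deviations from the group means were -0.013, 0.036 and -0.006. These do not settle pairing, since array noise can hide a shared donor. With the replicate block the count stayed at 1 and Runx3 1440275_at at 1.33 (limma adjusted p = 0.00505). The block changed none of the calls of the probe sets named. Signals near the floor limit Tcf4, Id3 in mPTCL 9 and Runx3 1421467_at in resting cells, and 3 arrays per normal group limit every test.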
